A study of Mus musculus with 6 samples.

Results

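Connexins are the proteins from which vertebrate gap junctions are built. Transcripts of 6 connexin genes, Gja1, Gja4, Gjb2, Gjb5, Gjc1 and Gjc3, were followed in mouse blastocysts that had developed in the mother or in culture. The genes were taken by name from the 49993 genes of the deposited count table, and all 6 were found there. They are 6 of the 20 connexin genes of the mouse, and 5 of the 6 had at least 1 count. They were chosen by name from the family, with the in vivo and in vitro counts of these same libraries known. Their levels and differences are therefore given as a description, and the tests printed beside them lend no independent support.

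Both groups came from superovulated females, which were mated naturally after an injection of 10 IU PMSG (a gonadotrophin from pregnant mares) and, 48 h later, one of 10 IU hCG (human chorionic gonadotrophin). Blastocysts of the in vivo group (n = 3 libraries) were flushed from the uterus on day 3.5. Those of the in vitro group (n = 3 libraries) were grown from zygotes, taken from the oviduct 19 to 21 h after hCG, in KSOM medium at 37 °C under 5% CO2. The labels and design text used here give no strain, no age of the females and no age of the cultured blastocysts at freezing. The sample labels name a single inner cell mass per library and "Embryonic stem cell" as the cell type, whereas the design text names blastocysts. No label says that the embryos of a group came from separate females, so the p-values rest on the spread among these libraries alone, which may be technical.

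Totals ranged from 6918288 to 17643429 counts per library. Rn18s-rs5, a ribosomal RNA gene, took 16.7%, 22.2% and 41.7% of them in vivo, and 36.1%, 35.8% and 40.4% in vitro (replicates 1 to 3). The lowest shares were thus those of in vivo replicates 1 and 2, so this difference runs partly along the groups. In vivo replicates 1 and 2 were the most alike (Spearman correlation of log2 CPM across genes 0.942), and in vivo replicate 3 reached 0.786 and 0.793 with them. In vitro replicate 2 held 1 count of 4 Y-linked genes, where the other 5 libraries held 1139 to 1693. All 10 trophectoderm markers and all 10 epiblast markers were detected. Trophectoderm markers summed to 600 to 1245 CPM in vivo and 932 to 1615 CPM in vitro, so the libraries carried transcripts of the outer layer as well as of the inner cell mass. CPM are counts per 1000000 of the scaled library total.

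A connexin crosses the membrane several times and exposes a pair of loops outside the cell. Connexins assemble into a ring, and rings of neighbouring cells dock through these loops to form a channel for ions and small metabolites. The compacted mouse embryo is coupled by such channels, and several connexins are made at once. Gja1 encodes connexin 43, the most widely expressed member, and Gja4 encodes connexin 37, which links the oocyte to its granulosa cells. Gjb2 encodes connexin 26 of the inner ear and epithelia, Gjb5 connexin 31.1 of placental trophoblast and skin, Gjc1 connexin 45 of the early heart and smooth muscle, and Gjc3 connexin 29 of myelinating glia.

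The stretch of the first docking loop that carries its cysteines is shown for each member. The sequences are coding strands, 5′ to 3′, of GENCODE M21 transcripts (GRCm38), with the cysteine codons in capitals.
Gja1: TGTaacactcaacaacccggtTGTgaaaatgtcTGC
Gja4: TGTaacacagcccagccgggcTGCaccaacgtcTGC
Gjb2: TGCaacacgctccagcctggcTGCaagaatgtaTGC
Gjb5: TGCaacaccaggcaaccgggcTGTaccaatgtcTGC
Gjc1: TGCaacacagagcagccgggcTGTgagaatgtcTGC
Gjc3: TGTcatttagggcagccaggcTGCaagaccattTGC
In each member 6 codons separate the first cysteine codon from the second, and 3 separate the second from the third. This spacing was found in 19 of the 20 connexin genes and in 460 of 21877 protein-coding genes (2.10%). Over the 36 bases, the 15 pairs of members were identical at 18 to 29 positions, with the fewest for Gja1 against Gjc3 and the most for Gjb5 against Gjc1. Longer identical stretches, which could split reads between genes, were counted over 50 bases of protein-coding transcripts. For Gjb5 0 of 1672, for Gja4 0 of 1636 and for Gjb2 0 of 2357 stretches occurred in a transcript of another gene. For Gja1 it was 5 of 3794 and for Gjc1 2 of 2671. Gjc3 had the most, 89 of 3953 (2.25%), shared with 589 other genes, so its 2 counts are uncertain.

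Gja1 was the most abundant of the members in every library, and all 3 cultured libraries held less of it than any in vivo one. The gene lies on the plus strand of chromosome 10 at 56377300 to 56390419 (GRCm38) and is protein-coding. Its counts were 6826, 9497 and 6646 in vivo and 982, 3014 and 1341 in vitro (replicates 1 to 3), which correspond to 535, 761 and 478 CPM in vivo, against 172, 221 and 175 CPM in vitro. The lowest in vivo library was thus above the highest in vitro library, and the 3 in vitro libraries lay close together. The in vivo mean was 591 ± 150 CPM and the in vitro mean 190 ± 27.5 CPM (SD, n = 3 each), 3.12-fold higher in vivo by the fitted value. As a log2 fold change of in vitro over in vivo this was −1.64 ± 0.31 (SE). By the quasi-likelihood test of edgeR, adjusted over 14301 genes, Gja1 was not called (adjusted p = 0.306), whereas DESeq2 (adjusted p = 0.00140) and limma-voom (0.0408) called it. With in vivo replicate 2 left out, the library highest in Gja1, DESeq2 no longer called it (adjusted p = 0.0635). As in any bulk sample, fewer cells of a type and less RNA per cell cannot be told apart.

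**Figure D1:**
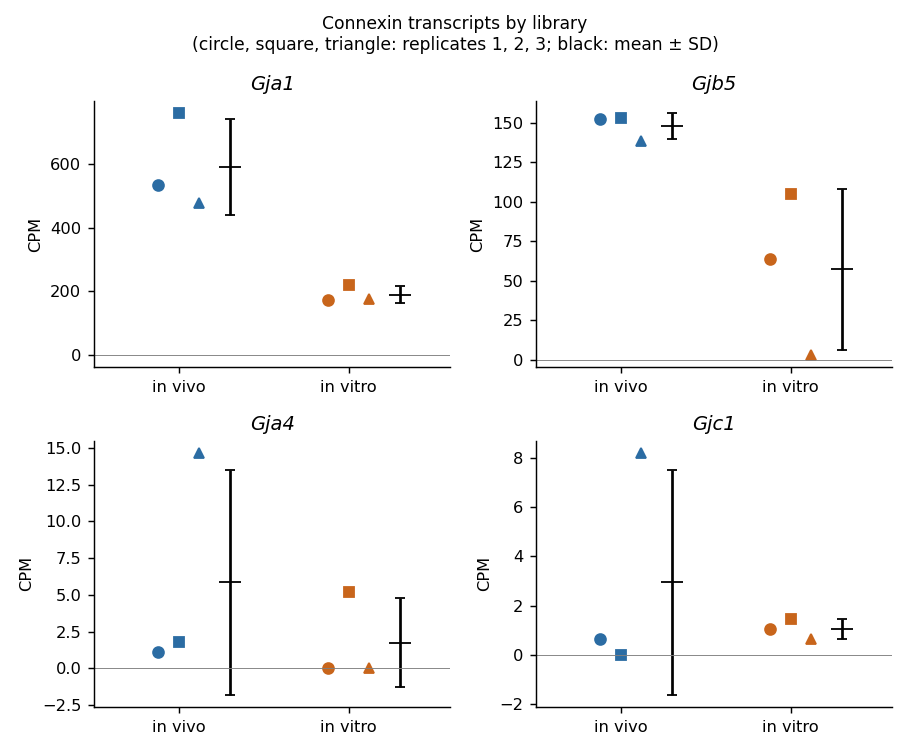
CPM (vertical axes, 1 scale per gene) of 4 of the 6 members in the 3 in vivo (blue) and 3 in vitro (orange) libraries. Points are libraries and black bars the mean ± SD (n = 3), which reach below 0 where 1 library holds most of the signal. Gja1 and Gjb5 do not overlap between the groups, Gjb5 is lowest in in vitro replicate 3, and Gja4 and Gjc1 are highest in in vivo replicate 3.

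Gjb5 was the other abundant member and also had no overlap between the groups, but its in vitro libraries were far apart. It is encoded on chromosome 4 (127354809 to 127358164, minus strand). Its counts were 1943, 1908 and 1922 in vivo and 361, 1426 and 22 in vitro. In CPM these were 152, 153 and 138 in vivo and 63.4, 104.8 and 2.88 in vitro, with means of 148 ± 8.36 and 57.02 ± 51.3 CPM (SD, n = 3 each). The in vivo libraries were nearly equal, in vitro replicate 2 came nearest to them and in vitro replicate 3 was almost without the transcript. The log2 fold change was −1.37 ± 0.87 (SE) and passed no test (adjusted p = 0.631 by edgeR, 0.456 by DESeq2 and 0.209 by limma-voom). Leaving out in vitro replicate 3 gave −0.81, and leaving out in vitro replicate 2 gave −2.17.

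Gja4, the oocyte connexin, was low in most libraries. It is encoded on chromosome 4 (127311420 to 127314039, minus strand). It had 14, 22 and 204 counts in vivo, against 0, 71 and 0 counts in vitro, or 1.10, 1.76 and 14.7 CPM and 0, 5.22 and 0 CPM. A single library of each group held most of its signal, in vivo replicate 3 and in vitro replicate 2, and the groups overlapped. The log2 fold change of −1.70 ± 1.85 (SE, edgeR adjusted p = 0.801) turned to 0.32 without in vivo replicate 3. Oocyte markers also stood out in that library, with a summed level of 99.9 CPM against 0.176 to 5.95 CPM in the other 5. Nearly all of it was Mos, a kinase of oocyte maturation, with 1325 counts there and 0 to 13 elsewhere, while Gdf9 and Bmp15, growth factors made by the oocyte, were at 0 there. Gdf9 had 28 counts in in vitro replicate 2, the other library high in Gja4, and Bmp15 had 0 in all 6. Nlrp5 (19 counts) and Zp2 (11 counts) were also highest in in vitro replicate 2. Zp3, on the same list, had 26, 46 and 63 counts in vivo, against 0, 19 and 0 in vitro. The part of oocyte transcripts in the Gja4 level was not tested.

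Gjc1, Gjb2 and Gjc3 were at or near the limit of detection. Gjc1 (chromosome 11, 102799477 to 102819686, minus strand) had 8, 0 and 114 counts in vivo, against 6, 20 and 5 in vitro, so in vivo replicate 3 again stood alone, at 8.20 CPM against at most 1.47 CPM in any other library. Gjc3 (chromosome 5, 137950992 to 137963098, minus strand) had 1 count in in vivo replicate 3, 1 in in vitro replicate 2 and 0 in the other 4. Gjb2 (chromosome 14, 57098602 to 57104702, minus strand) had 0 counts in all 6 libraries. Its exons overlap those of Gm32912 on the plus strand, and the strand setting of the counting is not given, so its 0 counts are less certain. At these depths a count of 0 allows up to 0.216 to 0.527 CPM per library (3 counts, counting error only). None of these 3 genes passed the filter on low counts, and they were not tested by edgeR. DESeq2, which fitted Gjc1, did not call it (log2 fold change −1.47 ± 1.66, SE, adjusted p = 0.743).

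Counted together, 3 of the 6 members passed the filter, each with a negative log2 fold change, against 50.2% of all tested genes. EdgeR called 0 of the 3, as it called 0% of all 14301 genes at an adjusted p below 0.05. Its newer form also called 0 of the 3, against 0.0210% of all genes. At an unadjusted p below 0.05 it had 1 of the 3 (Gja1), lower in vitro, against 5.08% of all genes lower and 10.2% in either direction. DESeq2 called 1 (Gja1), against 1.35% of its 15796 genes called lower and 2.99% called in either direction, and limma-voom called 1 (Gja1), against 0.713%. The groups did not overlap, with lower values in vitro, for 2 of the 3, against 10.0% of all tested genes (19.3% in either direction). Since the difference was known when the genes were picked, nothing is read from these shares.

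Per length, the order of the members by mean level was the same in both groups. Divided by gene length, mean levels in vivo were 190 ± 48.3 CPM per kb for Gja1, 86.8 ± 4.91 for Gjb5, 3.47 ± 4.54 for Gja4, 0.874 ± 1.35 for Gjc1 and 0.00583 ± 0.0101 for Gjc3 (SD, n = 3). In vitro they were 61.1 ± 8.86 for Gja1, 33.5 ± 30.1 for Gjb5, 1.03 ± 1.79 for Gja4, 0.315 ± 0.121 for Gjc1 and 0.00595 ± 0.0103 for Gjc3. Gja1 and Gjb5 were separated beyond their spread in vivo, but their mean ± SD ranges overlapped in vitro, as did those of Gja4 and Gjc1 in both groups. The in vitro order of Gja4 and Gjc1 came from replicate 2 (3.09 and 0.436 CPM per kb). In in vitro replicates 1 and 3 Gja4 was at 0 and Gjc1 at 0.313 and 0.194 CPM per kb. On this scale Gja1 was above 97.2% of tested genes in vivo and 92.9% in vitro, and Gjb5 above 94.1% and 88.2%, where the median tested gene was at 3.92 and 3.87 CPM per kb.

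The make-up of the connexin signal within a library does not depend on how libraries are scaled. Of the members' counts per kb, Gja1 took 65.6%, 73.0% and 62.5% in vivo and 59.7%, 52.3% and 96.8% in vitro. In in vitro replicates 1 and 2 the share was thus below that of every in vivo library, and in in vitro replicate 3 it was far above. Gjb5 filled nearly all of the rest, with 34.0%, 26.7% and 32.9% in vivo and 40.0%, 45.1% and 2.89% in vitro. The group means for Gja1 were 67.0 ± 5.37% and 69.6 ± 23.8% (SD, n = 3 each), a difference well within the spread. In raw counts, its share of the members was 98.0% in in vitro replicate 3 (95% Wilson interval 97.1 to 98.6%) and 66.5% in in vitro replicate 2 (65.1 to 67.9%), intervals that cover counting error only.

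**Figure D2:**
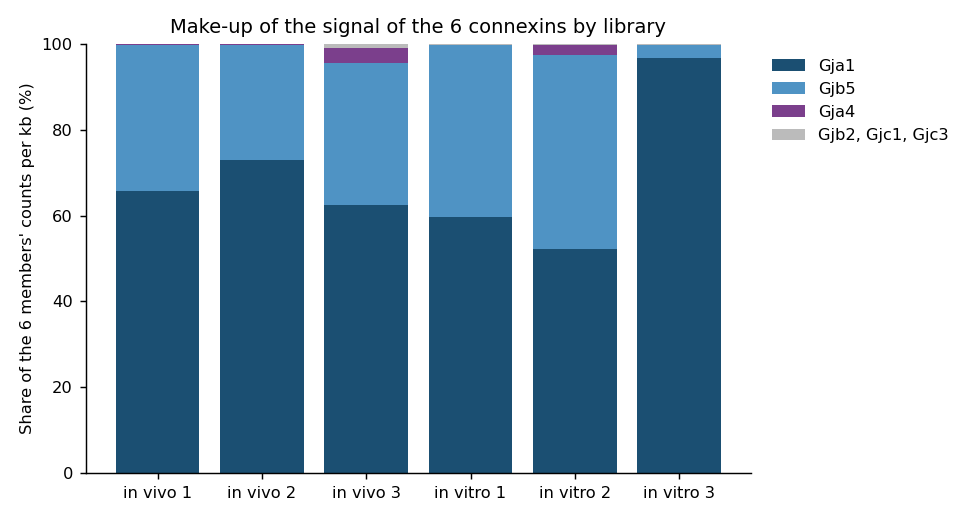
Share (%, vertical axis) of the summed counts per kb of the 6 members taken by each gene in the 6 libraries, as stacked bars. In vitro replicate 3 consists almost wholly of Gja1 (96.8%), whereas Gjb5 makes up 26.7% to 45.1% of the other 5 bars.

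Of the 14 connexin genes outside these members, 7 had a count. Those described here were scarce. Gjd3 had 10, 11 and 0 counts in vivo, against 0, 23 and 44 in vitro. Gjd4 had 18, 3 and 106 counts in vivo, against 5, 0 and 0 in vitro, and Gjd2 had 20 counts, all in in vivo replicate 3. In vivo replicate 3 was therefore the highest library for Gja4, Gjc1, Gjd4 and Gjd2. Gja6 had 2 counts in in vitro replicate 2 and Gje1 had 1 count in in vivo replicate 2.

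Gja4 and Gjb5 lie on the same strand of chromosome 4, and the exons of neither overlap those of another gene in the table. Across the 6 libraries the log2 CPM of Gjb5 had a Pearson correlation of 0.66 with Gja4 and 0.65 with Gja1. These points share the 2 groups and the scaling of the libraries, and no p is given. In vitro replicate 3 was the lowest library for Gjb5, and its trophectoderm markers summed to 1540 CPM, above all 3 in vivo libraries. The largest parts of that sum were Krt8 (674 CPM) and Krt18 (414 CPM). Krt8, Eomes (106 CPM), Elf5 (62.4 CPM) and Gata2 (48.0 CPM) were at their highest of the 6 libraries there. Tfap2c (7.32 CPM) was at its lowest, and Cdx2, Gata3, Krt18, Tead4 and Krt7 were at neither end. The part of the trophectoderm in the Gjb5 level was not tested. Gja1 in in vitro replicate 3 was near the other in vitro libraries. Within that library Gjb5 stood at 0.0299 of Gja1 per length, against 0.366 to 0.862 in the other 5.

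The 250 bases before the start of Gja1 and of Gjb5, the 2 abundant members, are shown to give the sequence next to which they start (RefSeq, GRCm38.p6). Capitals mark matches, on either strand, to the motifs searched: the AP-1 motif TGANTCA, the GC box GGGCGG, the TEAD motif GGAATG, the TATA box as TATAAA, and the CCAAT box.
Gja1 (chr10:56377050-56377299, plus strand): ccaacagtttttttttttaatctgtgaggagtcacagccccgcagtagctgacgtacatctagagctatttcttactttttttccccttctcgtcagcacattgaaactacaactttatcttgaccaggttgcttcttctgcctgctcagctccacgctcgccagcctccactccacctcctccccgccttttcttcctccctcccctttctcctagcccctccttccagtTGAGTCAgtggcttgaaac
Gjb5 (chr4:127358165-127358414, minus strand): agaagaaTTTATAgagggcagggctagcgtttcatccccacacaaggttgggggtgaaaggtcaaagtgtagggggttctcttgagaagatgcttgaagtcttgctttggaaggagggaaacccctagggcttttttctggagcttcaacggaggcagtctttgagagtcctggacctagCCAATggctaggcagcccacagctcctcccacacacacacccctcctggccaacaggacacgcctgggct
Gja1 held 1 AP-1 match, from −19 to −13 relative to the start, and none of the other motifs. An AP-1 match was present in 6.75% of 32851 windows of the same length. Gjb5 held a CCAAT box from −70 to −66 and, on the opposite strand, a TATA box match from −243 to −238, which were present in 33.8% and 12.4% of windows. No motif of this set was matched in both windows, and a match is a description of letters only.

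Among 6464 genes that passed the filter, with an assigned symbol and a mean of at least 10 CPM, the one whose pattern over the 6 libraries was most like that of Gja1 was Sirt6, the NAD+-dependent deacylase named in the title of the series. The Pearson correlation of their log2 CPM was 0.9998. Sirt6 had 724, 999 and 683 counts in vivo, against 106, 327 and 146 in vitro, so the ratio of Gja1 to Sirt6 counts was 9.43, 9.51 and 9.73 in vivo and 9.26, 9.22 and 9.18 in vitro. The observed proportion of the 2 genes was thus nearly the same in every library, within the groups as well as between them. With as few as 106 Sirt6 counts in a library, counting error limits how closely such a ratio is known. Whether the 2 genes keep a fixed proportion was not tested. The next were Mtif2 (0.994), a mitochondrial translation initiation factor, Vnn1 (0.9899), a pantetheinase, Gsr (0.986), glutathione reductase, and Rab5if (0.985). In all, 2 genes had a correlation above 0.99 with Gja1 and 37 above 0.95. Each was picked as the extreme of many genes over only 6 libraries, and these share the group difference and the scaling.

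**Figure D3:**
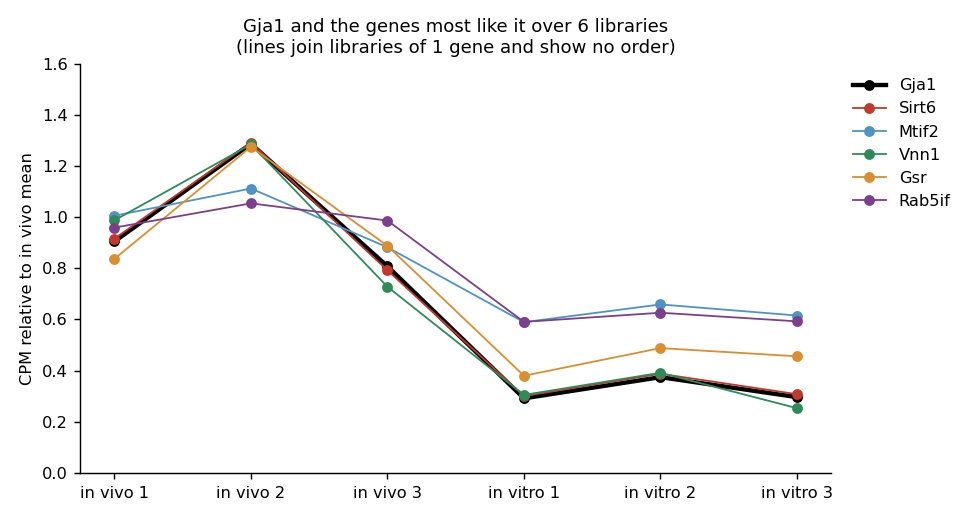
CPM relative to the gene's in vivo mean (vertical axis) in the 6 libraries for Gja1 (black) and the 5 genes most like it. Each point is 1 library, and lines only join the points of a gene. The Sirt6 line lies on that of Gja1, with a count ratio of 9.18 to 9.73, and Mtif2 and Rab5if follow the same shape with a smaller difference.

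For Gjb5 the closest genes were Whamm (0.996), an actin nucleation factor, Mars1 (0.995), the methionyl-tRNA synthetase, and Rce1 (0.994), a protease of prenylated proteins. Whamm was at 70.8, 77.0 and 66.1 CPM in vivo, against 32.7, 56.2 and 4.97 CPM in vitro, and like Gjb5 was lowest in in vitro replicate 3. For Gja4 they were Tmx4 (0.994), Mrpl20 (0.994) and Itga3 (0.985), and Itga3, an integrin chain, was at 9.88, 9.86 and 34.9 CPM in vivo, against 3.69, 27.997 and 3.79 CPM in vitro. Like Gja4, Itga3 was highest in in vivo replicate 3 and in vitro replicate 2.

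Connexins depend on other proteins to reach, anchor in and leave the membrane. Of 30 such partner genes 24 were tested. The fitted value was above 0 (higher in vitro) for 22 of them and below 0 for 2, and the median log2 fold change was 0.74, against −0.01 over all tested genes. With scaling by library totals only, which moved the median of all genes to −0.31, 17 were positive and 7 negative, with a median of 0.39. EdgeR called 0 of the 24 and had 5 at an unadjusted p below 0.05, all higher in vitro, against 5.11% of all genes. DESeq2 called 1 of the 24, higher in vitro, against 2.99% of its 15796 genes called in either direction. Limma-voom called 0, against 0.713% of all genes. Primitive endoderm markers were positive in 10 of 10 (median 0.99, 3 called by DESeq2 and 0 by edgeR), trophectoderm markers in 8 of 10 (median 0.64, 0 called by either) and epiblast markers in 5 of 10 (median −0.02, 0 called by either). The part of these lineages in the partner values was not tested.

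Among the partners, the scaffold Tjp1, which binds the tail of connexin 43, was at 38.4, 27.7 and 34.7 CPM in vivo, against 50.1, 53.2 and 113 CPM in vitro, without overlap (log2 fold change 1.10 ± 0.42, edgeR adjusted p = 0.428). Its value thus had the opposite sign to that of Gja1. Ctnna1, an alpha catenin of adherens junctions, was at 102 ± 27.5 and 231 ± 65.2 CPM (SD, n = 3 each). Genes of connexin removal included Nedd4, a ubiquitin ligase for connexin 43, at 53.3, 20.9 and 38.1 CPM in vivo, against 113, 50.8 and 195 CPM in vitro, and Ubqln4, at 17.4 ± 3.81 and 41.5 ± 25.4 CPM. Prkcd, a protein kinase C, was at 6.04 ± 2.79 and 15.8 ± 1.80 CPM. None of these 5 passed edgeR's test. Cnst, which recycles connexins to the membrane, and Eps15, an endocytic adaptor, were the 2 partners with a negative value (−0.97 ± 1.25 and −0.81 ± 0.45). Panx1, a channel of the related pannexin family and the only one of 9 other large-pore channel genes to pass the filter, was at 4.47, 6.49 and 0 CPM in vivo, against 6.15, 7.94 and 12.5 CPM in vitro (edgeR adjusted p = 0.795).

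**Figure D4:**
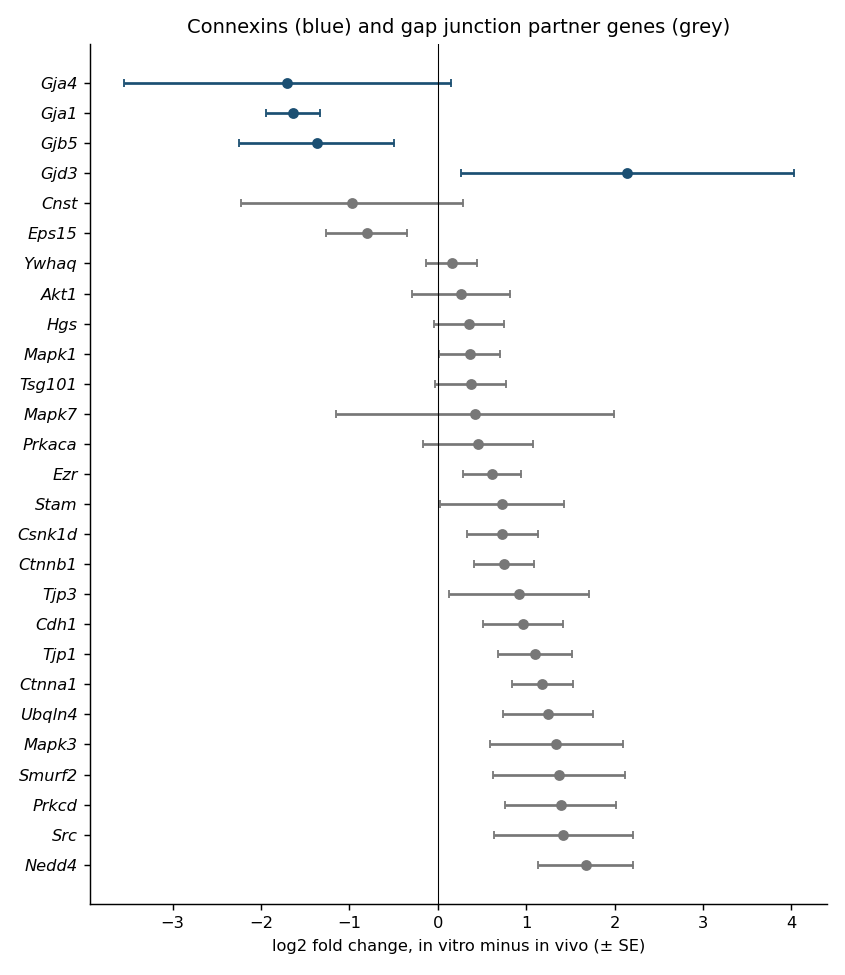
Log2 fold change of in vitro over in vivo (horizontal axis, ± SE from edgeR), of connexin genes (blue) and gap junction partner genes (grey) that were tested. All connexins shown but Gjd3 lie below 0, and all partner genes shown but Cnst and Eps15 lie above it, whereas with scaling by library totals only 17 of the 24 tested were positive.

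Cumulus and granulosa cells, which surround the oocyte, are rich in Gja1 and were removed from the zygotes of the in vitro group with hyaluronidase. Of 10 of their markers, 7 had 0 counts in all 6 libraries, among them Amh, Fshr, Cyp19a1, Has2 and Ptx3, and the summed level was 1.94 to 3.37 CPM in vivo and 0.527 to 4.04 CPM in vitro, mostly from Star. Markers of uterine stroma and smooth muscle, which also make Gja1, summed to 0 to 2.81 CPM in vivo and 3.34 to 6.41 CPM in vitro, with Dcn, Hand2 and Hoxa11 at 0 counts throughout. Uterine and oviduct epithelium markers summed to 10.6 to 35.4 and 12.7 to 68.1 CPM, with Ltf at 0 counts. Of these 10 markers 3 were tested, with 2 higher and 1 lower in vitro by the fitted value. Foxa2, among the higher, is also on the list of primitive endoderm markers. It had 0 counts in every in vivo library, against 34.4, 3.97 and 2.88 CPM in vitro. The lower one, Muc1, had 132, 58 and 215 counts in vivo, against 1, 36 and 1 in vitro. Its groups did not overlap, and edgeR did not call it (adjusted p = 0.440). Among the lineages of the embryo, primitive endoderm markers summed to 386 to 980 CPM in vivo and 780 to 1809 CPM in vitro and epiblast markers to 645 to 777 and 504 to 1183 CPM. The part of any of these cell types in the Gja1 level was not tested.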

How the data were processed

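Per the labels' protocols, total RNA of frozen blastocysts was taken up with a microextraction kit and made into libraries with a transposase kit. What the authors deposited is a single table of raw counts with gene coordinates and lengths. FastQC 0.11.2, DESeq2 and the build GRCm39 are named in the submitters' processing notes, but gene starts and ends equal those of RefSeq on GRCm38.p6 for 47937 of 49993 genes (95.9%), so positions are given on GRCm38. Aligner, counter, annotation and strand setting: not given in the sources used here.

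Libraries were grouped by title. Counts were analysed with edgeR 4.0.16 (R 4.3.3): filterByExpr by group (14301 genes kept), TMM scaling, robust dispersions (common biological coefficient of variation 0.727) and the legacy two-sided quasi-likelihood F-test. P-values were adjusted by Benjamini-Hochberg across the whole table, and calls made below 0.05. Alternatives were limma 3.58.1 (voom with weights), DESeq2 1.42.0, other scalings and filters, and leaving out libraries. CPM use TMM-scaled totals, and the log2 CPM for correlations has a prior count of 2. Levels per kb were divided by the gene length in the deposited table. The closest pair of libraries had a chi-square per degree of freedom of 31.5, so none was a copy.

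The members, lists and tests were chosen with earlier results of these data known. Named were the 6 members, the other connexin genes with a count, large-pore channels that passed the filter, the 6 partner genes of smallest p, and the genes of highest correlation with a tested member (5 for Gja1, 3 for the others). Of these, 3 genes are not reported here. Cnst, Eps15 and the markers named singly were chosen after their values were seen. The tests were checked on simulated counts with known changes; at the dispersion of these libraries DESeq2 recovered more of the changes than edgeR or limma-voom and made more false calls.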

Additional observations from a re-analysis of the deposited data

How the results depend on the processing

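Gja1 and Gjb5 kept a negative log2 fold change under all 22 alternatives (−1.97 to −1.41 and −2.17 to −0.81). Gja1 passed the threshold without a filter on low counts (−1.66, adjusted p = 0.00536), with DESeq2 (−1.63) and with limma-voom (−1.73). Leaving out in vivo replicate 1, 2 or 3 and then in vitro replicate 1, 2 or 3 in DESeq2, an alternative added after the data were seen, gave −1.71, −1.41, −1.77, −1.57, −1.74 and −1.58 for Gja1, with adjusted p-values of 0.000209 to 0.0635. In edgeR such fits gave −1.78 to −1.42, not called. Dropping the third in vivo library turned Gja4 to 0.32 (edgeR) and 0.27 (DESeq2). Dropping the second in vitro one, which alone held Gja4 counts in culture, gave −8.94 in edgeR, and DESeq2 then called it (−7.70, adjusted p = 0.0115). A filter of 5 CPM in 3 libraries removed Gja4. Over all genes the count of calls was 0 with edgeR but 391 without a filter, 473 with DESeq2, 102 with limma-voom, 3 with edgeR's newer form (added later) and, in the same order of libraries left out of DESeq2, 310, 152, 918, 264, 855 and 373. The members called were 1 without a filter, with DESeq2 and with limma-voom, and 0 to 2 with DESeq2 and 1 library left out. The share of all genes called was 2.99% with DESeq2 and 0.713% with limma-voom. The 2 members were called with in vitro replicate 2 left out, where 855 genes were called in all. The partner genes called were 1 without a filter and with DESeq2, and 0 to 1 with DESeq2 and 1 library left out. Without a filter, 391 of the 27882 genes with a count were called. With 1 library left out of DESeq2, the share of all genes called was not computed. Nothing is read from those counts of members and partners. The in vivo share of Gja1 was 78.5% in raw counts and 52.5% over all 20 connexin genes, by construction of the share. With 1 library left out it was 64.1% to 69.3% in vivo and 56.0% to 78.2% in vitro. Deviations of same-numbered libraries correlated by −0.0986, 0.0960 and −0.0443, and 1 of 3 libraries of each group correlated best with its own number. No pairing by number was seen, but 3 libraries per group are too few to exclude one. With the replicate block 0 genes were called and Gja1 was at −1.62. The cause of the other shifts was not tested. For Gjb2 and Gjc3, with 0 and 2 counts in all, no difference was detectable at this depth.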
